A study of Mus musculus with 6 samples.

Results

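Animal cells keep phosphatidylserine on the inner leaflet of the plasma membrane, and the genes described here encode the machinery that holds or breaks that arrangement. P4-ATPases, the flippases, use ATP to move phospholipid from the outer to the cytosolic leaflet, and most of them need a CDC50 subunit to leave the endoplasmic reticulum. Scramblases let lipids move both ways, and the phosphatidylserine they expose is the signal by which macrophages recognise dying cells. The set holds 9 of the 16836 genes in the table: the flippases Atp10a, Atp10d, Atp8a1, Atp8b4, Atp11a and Atp11b, the flippase subunit Tmem30a, and the scramblases Xkr8 and Ano6. All 9 were found by gene symbol. They were selected on their function with the KO and WT levels from these same libraries already known, and Atp10a was chosen by its lower KO level and its place beside Ube3a. Their differences between genotypes are therefore descriptions and not independent tests.

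RNA sequencing of mRNA was done on mouse bone marrow-derived macrophages, cells matured in culture from marrow precursors, in 3 libraries from Ube3a knockout mice (KO, Ube3a-/-) and 3 from wild-type littermates (WT). The knockout allele, strain, age and number of animals are not stated in the labels, so the p-values cover only how these libraries vary, which may partly be technical. The table held 25454862 to 32294791 reads in KO libraries and 28651459 to 35517269 reads in WT libraries. Levels are in CPM, reads scaled to a common library size with the sizes the authors had scaled, and errors are SD over the 3 libraries of a genotype. Genes that reached 1 CPM in 3 or more libraries were tested, and a gene passes the threshold at an adjusted p under 0.05. Ube3a, which encodes an E3 ubiquitin ligase, stood at 69.3 ± 7.94 CPM in KO, against 192.8 ± 14.8 CPM in WT, and it fell, as the targeted gene (adjusted p = 0.00444, limma, Benjamini-Hochberg over 12118 genes). All 10 macrophage markers looked for were in the table, with a summed level of 14567 to 17225 CPM in KO and 15346 to 16478 CPM in WT, most of it Lyz2. Xist had 28 reads in KO replicate 2 and 14 reads in WT replicate 2, against 30161 to 42232 reads in the other libraries.

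The 6 flippases share a catalytic site, which is shown here for comparison. It was found by the conserved motif of P-type ATPases, so sharing it does not by itself place Atp10a among the flippases. Sequence shared between relatives also bears on whether reads can be mixed up. The stretches below are 45 bases of coding sequence from the GENCODE M21 transcripts (GRCm38, read 5′ to 3′ on the gene's own strand). Capitals mark the codon of the aspartate that is phosphorylated in each transport cycle; it was found in the translated open frame by the conserved motif of P-type ATPases.
Atp10a: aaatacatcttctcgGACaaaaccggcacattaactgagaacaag
Atp10d: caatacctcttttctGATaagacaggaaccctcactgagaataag
Atp8a1: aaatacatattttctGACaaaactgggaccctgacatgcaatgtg
Atp8b4: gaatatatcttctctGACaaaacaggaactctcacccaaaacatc
Atp11a: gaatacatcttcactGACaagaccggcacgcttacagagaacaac
Atp11b: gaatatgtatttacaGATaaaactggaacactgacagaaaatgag
In this stretch Atp10a had the same base as Atp11a at 36 of 45 positions. The same count was 33 for Atp10d, 32 for Atp8b4, 30 for Atp8a1 and 29 for Atp11b. Over the whole transcripts used, the longest exact run that Atp10a shared with Atp10d was 31 bases, and with the other 4 flippases it was 12 to 16 bases. None of the shared runs between any 2 of the 6 was longer than 31 bases. Only these 6 flippases were compared, with a single transcript each, and whether reads were mixed up was not tested. The catalytic codon of Atp10a lies in exon 7 of 21 at chr7:58788362-58788364.

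The genes lie on 8 chromosomes (GENCODE M21, GRCm38). Apart from Atp10a on chromosome 7, the flippases are Atp10d (chr5:72203329-72298775, plus strand), Atp8a1 (chr5:67618140-67847434, minus), Atp8b4 (chr2:126320973-126500674, minus), Atp11a (chr8:12757014-12868728, plus) and Atp11b (chr3:35754106-35856276, plus). Tmem30a lies at chr9:79768943-79793507 (minus), Xkr8 at chr4:132724897-132732546 (minus) and Ano6 at chr15:95790843-95974751 (plus).

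Atp10d carries a further feature that bears on what its reads stand for. GENCODE M21 lists the gene as a polymorphic pseudogene, and in the GRCm38 reference the open frame that holds the catalytic codon runs for 816 codons, against 1508 codons in Atp10a and 1164 to 1194 in the other 4 flippases. Reads on Atp10d thus count transcript and do not tell whether a full pump is made, and the strain of these mice is not known here. The other genes overlap few annotated exons. Ano6 shares 214 exon bases on the opposite strand with A130051J06Rik, which the table also holds, and 122 with Gm49172. Atp11a shares 199 with Gm15350 and 172 with Gm15347. Atp8a1 shares 138 with Shisa3 and 66 with Gm15477. These too are on the opposite strand, but apart from A130051J06Rik the partners are not in the table. The labels do not say whether strand was used in counting, so reads in these parts cannot be assigned to one gene of a pair.

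Per kilobase of merged exon, the flippase Atp8b4 stood highest of the 9 genes, 28.7 times the level of the lowest, Xkr8. Atp8b4 averaged 75.1 CPM per kb over the 6 libraries (65.6 to 85.7 CPM per kb), and Tmem30a, the subunit that most flippases share, averaged 41.2 CPM per kb (33.7 to 48.7 CPM per kb). Atp11a, a plasma membrane flippase for phosphatidylserine, averaged 17.1 CPM per kb. Ano6, the scramblase opened by calcium, averaged 12.4 CPM per kb, and Atp11b, an endosomal flippase, 12.1 CPM per kb. The level per kb was 6.94 for Atp8a1, 4.86 for Atp10d, 3.96 for Atp10a and 2.62 for Xkr8, the scramblase that caspases switch on in dying cells. In this order, 3 pairs of neighbours had overlapping ranges over the libraries, namely Ano6 with Atp11b, Atp10d with Atp10a, and Atp10a with Xkr8. With the longest transcript as the length, 7 of the 9 kept their place, and Ano6, at 30.8 CPM per kb, stood above Atp11a, at 25.2 CPM per kb.

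**Figure D1:**
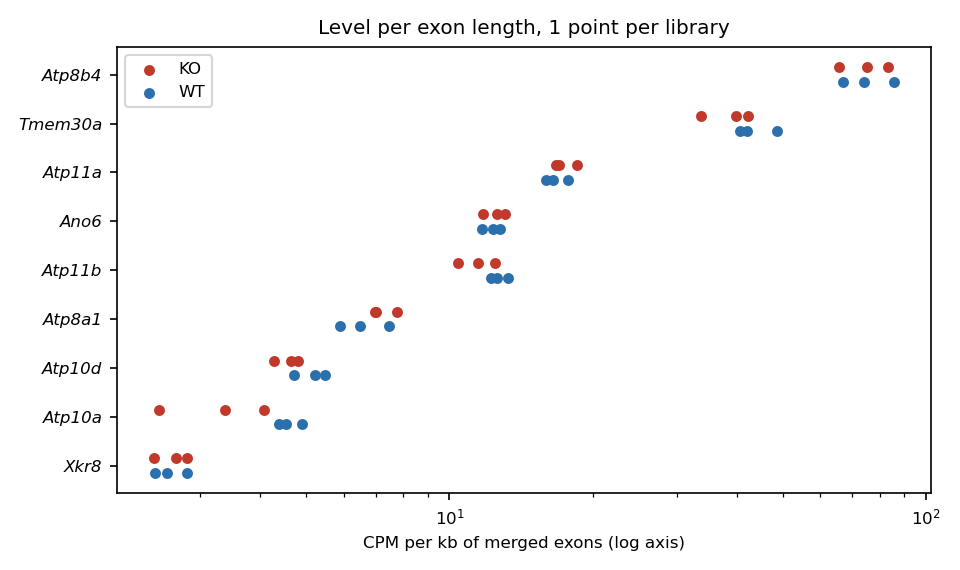
Level of each gene in CPM per kb of merged exon length (log axis), with 1 point per library, KO in red above WT in blue. Atp8b4 and Tmem30a lie to the right of all others in every library, and Atp10a and Xkr8 lie at the low end.

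Of the summed P4-ATPase level per kb, Atp8b4 made up 50.8% ± 2.01 in KO and 49.6% ± 3.13 in WT (SD, n = 3 each). Atp11a made up 11.9% ± 0.781 in KO and 11.0% ± 0.220 in WT. Atp10a made up 2.24% ± 0.385 in KO and 3.05% ± 0.286 in WT, so it was a small part of the flippase transcripts in either genotype. These shares are over the 13 P4-ATPase genes in the table and depend on the merged exon length. With the longest transcript as length, Atp8b4 went from 75.1 to 87.9 CPM per kb and Atp9b from 8.02 to 17.8. Shares on that length were not computed.

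Atp10a, whose human protein moves phosphatidylcholine, had the lowest KO level relative to WT of the 9 genes. The gene (ENSMUSG00000025324, chr7:58656166-58829420, plus strand, GRCm38) stood at 22.8, 13.7 and 18.9 CPM in KO replicates 1 to 3 and at 27.4, 24.5 and 25.4 CPM in WT replicates 1 to 3. All 3 KO libraries lay below all 3 WT libraries, with KO replicate 2 lowest. The mean was 18.5 ± 4.57 CPM in KO, against 25.8 ± 1.48 CPM in WT, or 71.8% of the WT level. Its log2 fold change on log2(CPM + 1) was −0.48 (95% interval −0.86 to −0.11), and it did not pass the threshold. Between 427 and 614 reads in each KO library and 692 to 917 reads in each WT library lay on the gene. In the authors' deposited table its log2 fold change was −0.52, with an unadjusted p-value of 0.00919. In bulk samples, fewer cells that express a gene and less RNA per cell cannot be told apart.

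The size of the Atp10a difference depended on KO replicate 2. Without that library the log2 fold change was −0.29, and without both libraries numbered 2, those with almost no Xist, it was −0.33. Without KO replicate 1 it was −0.64. The KO libraries spread more than the WT libraries, with a coefficient of variation of 24.7% in KO and 5.73% in WT. For the other 8 genes this ran from 5.30% to 11.7% in KO and from 4.24% to 12.6% in WT, and its median over all tested genes was 8.28% in KO and 7.72% in WT.

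Among the other flippases, Atp10d, whose human protein moves glucosylceramide, had 33.7, 36.5 and 37.8 CPM in KO and 43.0, 37.1 and 41.0 CPM in WT. KO replicate 3 lay above WT replicate 2, so the genotypes overlapped, and the log2 fold change was −0.16 (−0.34 to 0.03). Atp11b had 105.4, 95.7 and 114.6 CPM in KO and 121.7, 112.0 and 115.4 CPM in WT. Its KO replicate 2 was lowest, its groups overlapped through KO replicate 3, and its log2 fold change was −0.15 (−0.33 to 0.03). Without KO replicate 2 it was −0.081.

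Atp8a1, a flippase of recycling endosomes that handles phosphatidylserine, had 100.3, 99.9 and 110.7 CPM in KO and 84.3, 106.8 and 92.6 CPM in WT. WT replicate 2 lay inside the KO range, and the log2 fold change was 0.14 (−0.08 to 0.35). It was 0.058 without WT replicate 1, 0.088 without KO replicate 3 and 0.23 without WT replicate 2. Atp11a had 206.4, 189.3 and 186.9 CPM in KO and 184.0, 197.3 and 177.4 CPM in WT, with a log2 fold change of 0.06 (−0.10 to 0.22). Leaving out KO replicate 1 gave 0.016, leaving out WT replicate 3 gave 0.026 and leaving out WT replicate 2 gave 0.10. Atp8b4 had 553.1, 437.0 and 501.3 CPM in KO and 493.7, 571.0 and 445.1 CPM in WT. Its highest library was WT replicate 2 and its lowest KO replicate 2, so the spread within a genotype exceeded the log2 fold change of −0.017 (−0.29 to 0.25). It was positive without KO replicate 2, at 0.073, and without WT replicate 2, at 0.078.

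The subunit Tmem30a had 225.3, 190.0 and 238.4 CPM in KO and 275.0, 237.9 and 229.6 CPM in WT. As for Atp10a, Atp11b and Atp8b4, KO replicate 2 was the lowest of the 6 libraries. The Tmem30a log2 fold change was −0.18 (−0.42 to 0.05), and KO replicate 3 lay above WT replicates 2 and 3. The log2 fold change was −0.090 without KO replicate 2 and −0.11 without WT replicate 1.

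Both scramblases overlapped between genotypes. Xkr8 had 12.2, 11.5 and 10.4 CPM in KO and 11.0, 12.2 and 10.4 CPM in WT, from 304 to 376 reads per library, and a log2 fold change of 0.015 (−0.21 to 0.24), which was −0.033 without KO replicate 1 and −0.032 without WT replicate 3. Ano6 had 160.1, 154.3 and 144.1 CPM in KO and 156.7, 143.9 and 151.4 CPM in WT, and a log2 fold change of 0.020 (−0.13 to 0.17), which was −0.014 without KO replicate 1 and −0.013 without WT replicate 2. Neither interval shows that the genotypes are alike, and both cover only how these libraries vary.

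**Figure D2:**
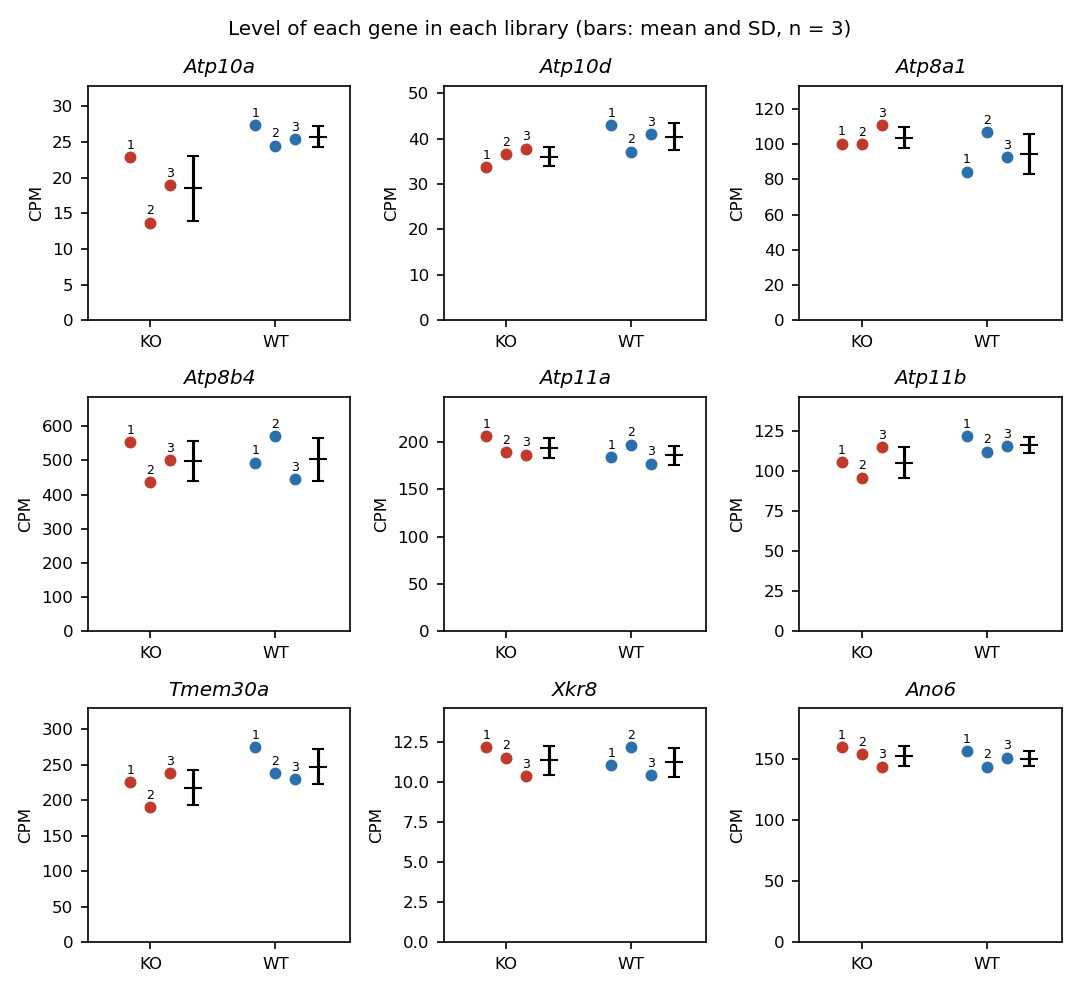
CPM of each of the 9 genes in every library, KO in red on the left and WT in blue on the right, with the replicate number above each point and the mean and SD (n = 3) as a black bar. The groups are apart in Atp10a and overlap in the other 8 genes, and KO replicate 2 is the lowest library in Atp10a, Atp8b4, Atp11b and Tmem30a.

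None of the 9 genes passed the threshold (limma, Benjamini-Hochberg adjustment over all genes tested, two-sided, adjusted p from 0.866 to 0.978), where 0.0165% of the 12118 tested genes did. Nor did any pass with limma-voom on the recovered reads. With an unadjusted limma p under 0.05 there was 1 of the 9, Atp10a, and 4.13% of all tested genes. The same gene was the only 1 of the 9 whose KO and WT libraries did not overlap, against 9.95% of all tested genes. Since the genes were chosen with this comparison known, nothing is read from these counts. The median log2 fold change was −0.017 over the 9 genes and 0.0015 over all tested genes, with 4 positive and 5 negative values.

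None of the other flippases passed the threshold either. Of 15 P4-ATPase genes looked for, 13 were in the table and 9 were tested, with none past the threshold in either direction, 2 positive and 7 negative values and a median log2 fold change of −0.03. Atp9b, a Golgi flippase that works without a CDC50 subunit, stood at 94.9 ± 2.83 CPM in KO, against 96.0 ± 3.00 CPM in WT. Atp8b2 stood at 85.0 ± 5.37 CPM in KO, against 87.0 ± 6.44 CPM in WT. Atp9a, at 0.600 ± 0.0753 CPM in KO, against 0.707 ± 0.442 CPM in WT, was under the filter of 1 CPM in 3 libraries, as were Atp8a2, Atp8b1 and Atp8b5.

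Among the other scramblase families, no gene passed the threshold in either direction among 4 tested XK genes, 3 tested TMEM16 genes and 3 tested PLSCR genes. Xk, the namesake of the family, had 6.08, 5.78 and 6.29 CPM in KO and 8.13, 8.10 and 7.79 CPM in WT. Its groups did not overlap, and its log2 fold change was −0.35 (−0.56 to −0.15). Xkr5 and Xkr6 had log2 fold changes of −0.07 and 0.09. Nptn, a partner glycoprotein that carries XKR8 to the cell surface, stood at 405.5 ± 33.0 CPM in KO, against 422.7 ± 16.7 CPM in WT. Bsg, a second such partner, stood at 257.1 ± 6.30 CPM in KO, against 248.5 ± 6.28 CPM in WT. Ano10 and Ano8 had log2 fold changes of 0.07 and 0.06, and Plscr3, Plscr1 and Plscr4 had 0.14, 0.0047 and −0.10.

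**Figure D3:**
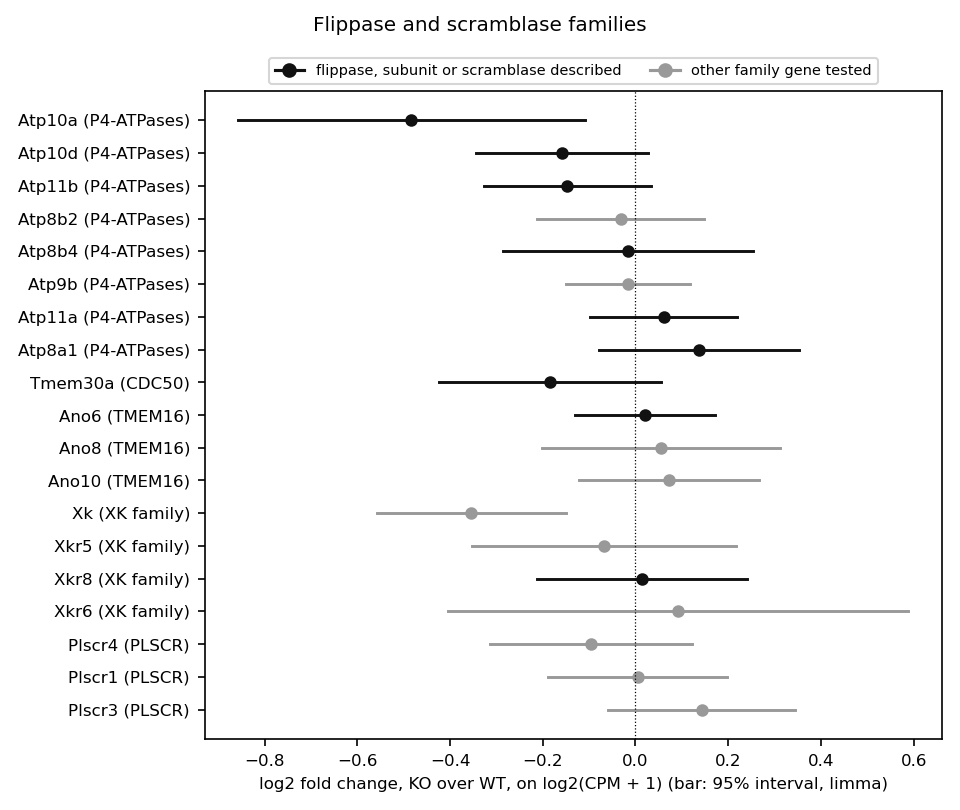
Log2 fold change of KO over WT on the log2(CPM + 1) scale, with the 95% interval from limma, for tested genes of the flippase and scramblase families. Black marks the genes described here and grey the other family genes; the intervals of Atp10a and Xk lie below 0, and none of the genes passed the threshold after adjustment.

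Genes of related steps also passed in neither direction. Scramblases of internal membranes (8 tested) had log2 fold changes with a median of 0.05, with Serinc3 at 596.6 ± 46.5 CPM in KO, against 620.4 ± 35.3 CPM in WT and Vmp1, which acts in autophagosome formation, at 134.0 ± 7.01 CPM in KO, against 133.1 ± 11.2 CPM in WT. ABC transporters that export lipid (7 tested) had a median of 0.02, and the widest spread was that of Abca1, the cholesterol and phospholipid exporter, at 242.1 ± 16.7 CPM in KO, against 212.7 ± 97.6 CPM in WT. Phosphatidylserine synthesis and decarboxylation genes (3 tested) had a median of 0.05, with Ptdss1 at 98.0 ± 3.75 CPM in KO, against 94.5 ± 3.91 CPM in WT. The caspases (5 tested), which act on XKR8 and on flippases in dying cells, had a median of −0.09. Of the trafficking partners of flippases (7 tested, median −0.02), Snx3, a sorting nexin, had 209.0, 244.1 and 224.2 CPM in KO and 188.5, 196.3 and 205.6 CPM in WT. Its KO libraries lay above its WT libraries, and its log2 fold change was 0.20 (0.02 to 0.37). In 4 of the 7 the groups did not overlap, against 9.95% of all tested genes. Over all these lists, this held for 6 of the 43 tested genes that are not among the 9. Nothing is read from these counts. The other 3 trafficking genes without overlap were named for that after their values were seen. Mon2, with KO above WT, had a log2 fold change of 0.05 (−0.08 to 0.18). Arl1, with KO below WT, had −0.12 (−0.28 to 0.03), and Dop1a, also with KO below WT, had −0.05 (−0.19 to 0.08). Over all 43 tested genes of these lists that are not among the 9, the median was 0.012, with 24 positive and 19 negative values.

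Atp10a lies 399 kb from Ube3a, its neighbour in the imprinted domain of chromosome 7, and reports differ on whether Atp10a itself is imprinted in mouse tissues. Of 41 other tested genes within 10 Mb of Atp10a, leaving out Ube3a, 32 had negative and 9 positive log2 fold changes, with a median of −0.08, where 49.6% of all tested genes were negative. Htatip2 had a lower value than Atp10a, at −0.89, and Gm5596 was level with Atp10a at −0.48. With a pseudocount of 0.5 in place of 1, Gm5596 was lower, at −0.55, against −0.50 for Atp10a. As a share of the WT mean in CPM, Gm5596 at 63.9%, Gm44667 at 69.9%, Fan1 at 70.9% and Fancf at 71.5% of the tested genes also lay below Atp10a at 71.8%. Htatip2, Gm44667, Fan1 and Fancf are named after their values were seen. The nearest gene of the table on the Ube3a side was Gm6226, 7.37 kb away, with 0.805 ± 0.168 CPM in KO, against 0.825 ± 0.0435 CPM in WT, under the filter. On the other side the nearest was Gm5596, 775 kb away, with 2.53 ± 0.328 CPM in KO, against 3.96 ± 0.759 CPM in WT. Herc2 stood at 231.4 ± 3.50 CPM in KO, against 232.1 ± 2.35 CPM in WT. Other tested genes in this window also had KO below WT without overlap. Among them Cyfip1, named after its values were seen, had a log2 fold change of −0.37 (−0.51 to −0.23). Of 13 genes looked for in the imprinted domain, 6 were in the table and 3 were tested, namely Ube3a, Atp10a and Herc2. The rest of the 6 stayed under 1 CPM in every library. Their KO means lay above their WT means, but by unlike amounts, and the groups did not stay apart in all of them. The least different had 0.282 CPM in KO, against 0.270 CPM in WT, with overlap. Ube3a and its neighbours share a chromosome region, so the lower Ube3a level and any local difference between the KO and WT chromosomes cannot be told apart here.

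**Figure D4:**
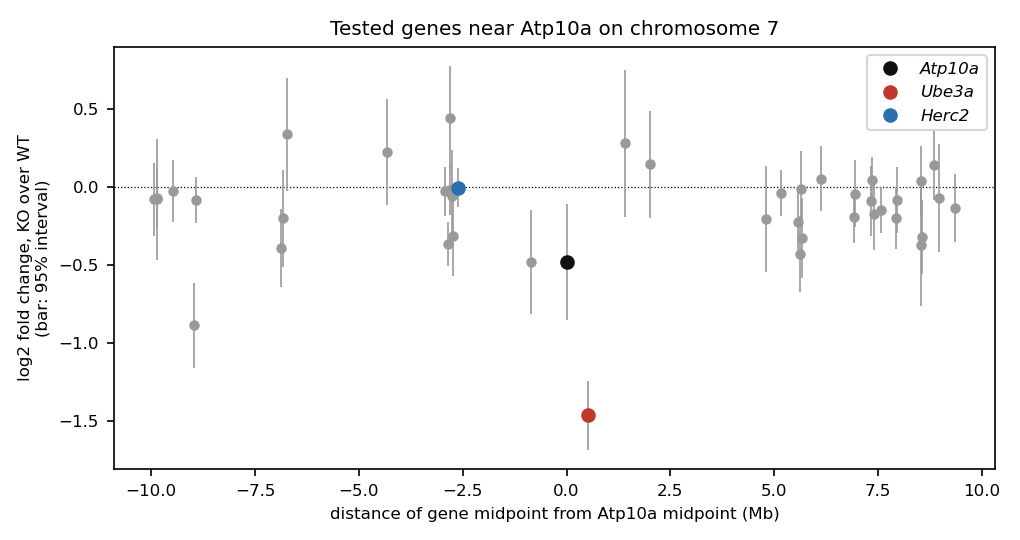
Log2 fold change of KO over WT with its 95% interval for each tested gene within 10 Mb of Atp10a, by the distance between gene midpoints in Mb. Ube3a is the lowest at −1.47, Atp10a (black) is at −0.48 and Herc2 (blue) at −0.0049.

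The 5 genes whose levels over the 6 libraries were most like those of Atp10a were Arl14ep, Cpsf6, Rad23b, Cdc7 and Polr3f, with Pearson r of 0.993, 0.993, 0.992, 0.990 and 0.987 on log2(CPM + 1). They are the highest of 8790 genes with at least 10 CPM on average, and this is a description of 6 libraries. In each of the 5, KO replicate 2 was the lowest library and KO lay below WT, as in Atp10a. Since the 5 were picked for likeness to Atp10a over these same libraries, this is no separate result about them. Their log2 fold changes ran from −0.35 to −0.13 and were smaller in size than that of Atp10a. None of them lies on chromosome 7.

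The libraries also differed in genes outside this machinery, with values that stand beside the results above. Neutrophil markers (9 of 12 in the table) summed to 2.92 to 10.5 CPM in KO and 5.06 to 17.0 CPM in WT, with WT replicates 1 and 3 highest. The progenitor list (7 of 8 in the table) was nearly all Cd34, which stood at 28.1 ± 5.15 CPM in KO and had 77.3, 28.9 and 74.1 CPM in WT. Of its other genes, Meis1 stood at 5.64 ± 0.703 CPM in KO, against 5.90 ± 0.896 CPM in WT, and Kit, Flt3, Gata2, Hoxa9 and Myb averaged under 1 CPM in both genotypes. Of the 10 macrophage markers, none passed the threshold, 7 had positive and 3 negative log2 fold changes, and the median was 0.10. Fcgr1 and Mrc1, named after their values were seen, had the largest differences among them. Fcgr1, an Fc receptor, had 188.3, 154.4 and 174.2 CPM in KO and 85.6, 161.9 and 117.7 CPM in WT. Mrc1, the mannose receptor, had 531.1, 897.1 and 800.0 CPM in KO and 277.0, 738.1 and 403.9 CPM in WT. WT replicate 2 lay within the KO range in both receptors and in Cd34, and the part of these genes in the levels of the 9 was not tested. Interferon-stimulated genes (12 of 12) summed to 240.2 to 1198 CPM in KO and 267.2 to 986.3 CPM in WT. In Atp8b4, Atp11a and Xkr8, named after their values were seen, KO replicate 1 and WT replicate 2 were the highest of their genotype. The interferon-stimulated sum had the same highest libraries, and the rest of the 9 genes did not. Over all 12118 tested genes, the deviations of KO replicate 1 and WT replicate 2 from their genotype means correlated at 0.40. This was the highest value of any KO library with any WT library. KO replicate 3 and WT replicate 1 correlated at 0.31, and KO replicate 1 and WT replicate 3 at −0.39. Deviations from means of 3 libraries follow the largest swings between libraries, so nothing is read from these values. The part of the interferon-stimulated genes in the levels of Atp8b4, Atp11a and Xkr8 was not tested. The lists for B cells, T and NK cells, dendritic cells, mast cells with basophils and eosinophils, and stromal and endothelial cells summed to at most 4.69 CPM in any library, with Cd3e, Clec9a and Cpa3 among the markers not in the table. The erythroid and megakaryocyte list (2 of 7, nearly all Pf4) summed to 71.3 to 107.2 CPM in KO and 70.6 to 82.1 CPM in WT.

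**Figure D5:**
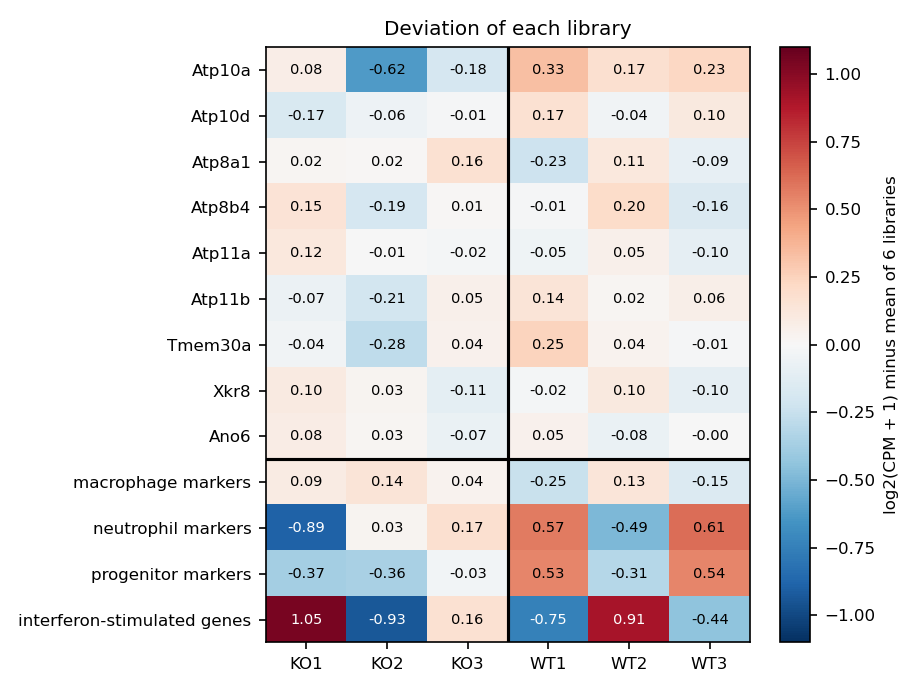
Deviation of each library from the mean of all 6 on the log2(CPM + 1) scale, for the 9 genes and for the mean of 4 marker lists below the line, with KO libraries left and WT libraries right. Atp10a is lowest in KO replicate 2, at −0.62, and the interferon-stimulated genes range from −0.93 in KO replicate 2 to 1.05 in KO replicate 1.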

How the data were processed

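The authors deposited 1 table of 16836 genes with log2 CPM values per library, a log2 fold change and an unadjusted p-value. The submitters' processing notes name Cufflinks, FastQC 0.11.15, HTSeq 0.11.0, HISAT2 2.1.0 and Trimmomatic 0.36; their roles, the build and the annotation were not given in the sources used. Values of size 1 or more had lost their decimal mark. It was restored from the rule that 2 to the power of the value, minus a shared offset, is a whole multiple of 1 step per library, which gave whole reads (within 0.001) for 100% of cells. The 12118 genes that reached 1 CPM in 3 or more libraries were tested with limma 3.58.1 in R 4.3.3 on log2(CPM + 1), on which changes of low genes look too small, with genotype as the only term. A gene is called at a Benjamini-Hochberg adjusted p under 0.05. Positions and exon lengths are from GENCODE M21 (GRCm38), matched by identifier for 16827 genes, and gene names come from the deposited table. The genes and lists were chosen with earlier results of these data known, and each list gene named was among the 4 most abundant of its list, unless it is stated otherwise. The recovery and the limma step were tested on simulated data. Libraries were not paired by replicate number in the fit. A few listed genes are not reported here by name, though they stayed in all tests and counts.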

Additional observations from a re-analysis of the deposited data

How the results depend on the processing

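None of the 9 genes was called in any of the 14 alternatives. The number of genes called over the whole table was 2 in the reported fit, 1 with no filter on low values, 1 with limma-voom on the recovered reads and 24 with both libraries numbered 2 left out together. Without 1 library it was 1 to 8, with 8 in the fit without WT replicate 2. With the replicate block it was 2, with 0 of the 9 genes called. The deviations of same-numbered libraries correlated at −0.22, −0.13 and 0.14 for replicates 1 to 3, and 0 of the 6 libraries correlated best with their own number. Deviations from means of 3 libraries follow the largest swings between libraries. They therefore cannot show whether the numbers pair the libraries by litter or batch. Both libraries numbered 2 had almost no Xist. The Atp10a log2 fold change lay between −0.64 (without KO replicate 1) and −0.29 (without KO replicate 2). Atp10d, Atp11b and Tmem30a stayed negative and Atp8a1 and Atp11a positive in all 14, while Atp8b4, Xkr8 and Ano6 had the other sign in 3, 2 and 3 of them. Atp8b4 was at 0.17 with both libraries numbered 2 left out; the cause was not tested. Of 686 values over 49 genes and 14 alternatives, 5 moved by more than the spread within a genotype. With the longest transcript as length, 7 of the 9 places in the order of levels were kept. With 3 libraries per genotype, the median half-width of the 95% interval over the 9 genes was 0.22 on the log2 scale.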
